A study of Homo sapiens with 4 samples.

Results

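The ITGA3 neighbourhood is the stretch of chromosome 17 from 48 to 49 Mb on genome build hg19, around the gene for the integrin alpha-3 chain. Its members are the deposited PPARG peaks whose midpoints lie in that window, except those inside the span of the adjacent gene PDK2. The rule found 11 of the 2225 peaks listed for NCI-H2347 and 1 of the 1419 peaks listed for NCI-H1993. The members were chosen by the number of listed peaks, many in NCI-H2347 and few in NCI-H1993, so these counts, and the scores behind the calls, describe the choice and were not tested.

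Binding was mapped by chromatin immunoprecipitation and sequencing (ChIP-seq) in NCI-H2347 and NCI-H1993, both established lines from human lung adenocarcinoma. Both had received PPARG with a LAP tag on a bacterial artificial chromosome (BAC), and chromatin was precipitated with a goat antibody against EGFP, which recognises the tag. All groups shared this transgene and serum-containing culture, and the labels record no treatment. Of the 4 libraries, 1 ChIP library per line was used, and the inputs were not analysed here. Both lists carry the letters PIO in their names, which the labels leave unexplained, and the labels do not state whether each line was a single clone. No line without the tag was analysed here, so the antibody's signal apart from the tag is unknown.

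PPARG is a nuclear receptor that is activated by fatty acids and by drugs such as thiazolidinediones. It binds DNA together with a retinoid X receptor, often at enhancers within introns or between genes, and regulates fat storage and insulin response. The integrin alpha-3 chain pairs with the beta chain encoded by ITGB1 to form a receptor for laminins, through which epithelial cells such as those of the lung hold on to their basement membrane. ITGA3 is read toward higher coordinates.

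The position of the gene was taken as 48133 to 48168 kb, and that of PDK2 as 48172 to 48189 kb. These limits are known only to the whole kb, so distances measured from them are no more exact than that. A RefSeq gene table on the newer build GRCh38.p14, used for names, lengths and order only, gave ITGA3 a length of 34.4 kb against 35 kb in these spans, and PDK2 17.4 kb against 17 kb. In that table PDK2, a kinase that inhibits pyruvate dehydrogenase, was the next protein-coding gene after ITGA3. Before ITGA3 came DLX3 and DLX4, which encode homeobox transcription factors, then TAC4, a tachykinin gene, KAT7, a histone acetyltransferase gene, and FAM117A. After PDK2 came SAMD14, PPP1R9B, which encodes a scaffold of protein phosphatase 1, SGCA, which encodes a sarcoglycan of muscle, and COL1A1, which encodes a chain of type I collagen. Peaks beyond the spans of ITGA3 and PDK2 were not assigned to any gene, because no gene positions on hg19 were used for them.

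Of the 11 NCI-H2347 peaks, 2 lay before ITGA3, 3 inside it and 6 beyond PDK2. The value of each peak is the score that the authors' peak caller gave it, on a scale that ran from 50.05 upward in the NCI-H2347 list and from 50.03 upward in the NCI-H1993 list. Scores are read here only as a rank within a list. The member scores ran from 53.5 to 492 with a median of 95.6, against a median of 77.1 for the whole NCI-H2347 list. Read depth was unknown for both libraries, and a site without a listed peak is one where no peak was called, not one shown to be unbound.

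**Figure D1:**
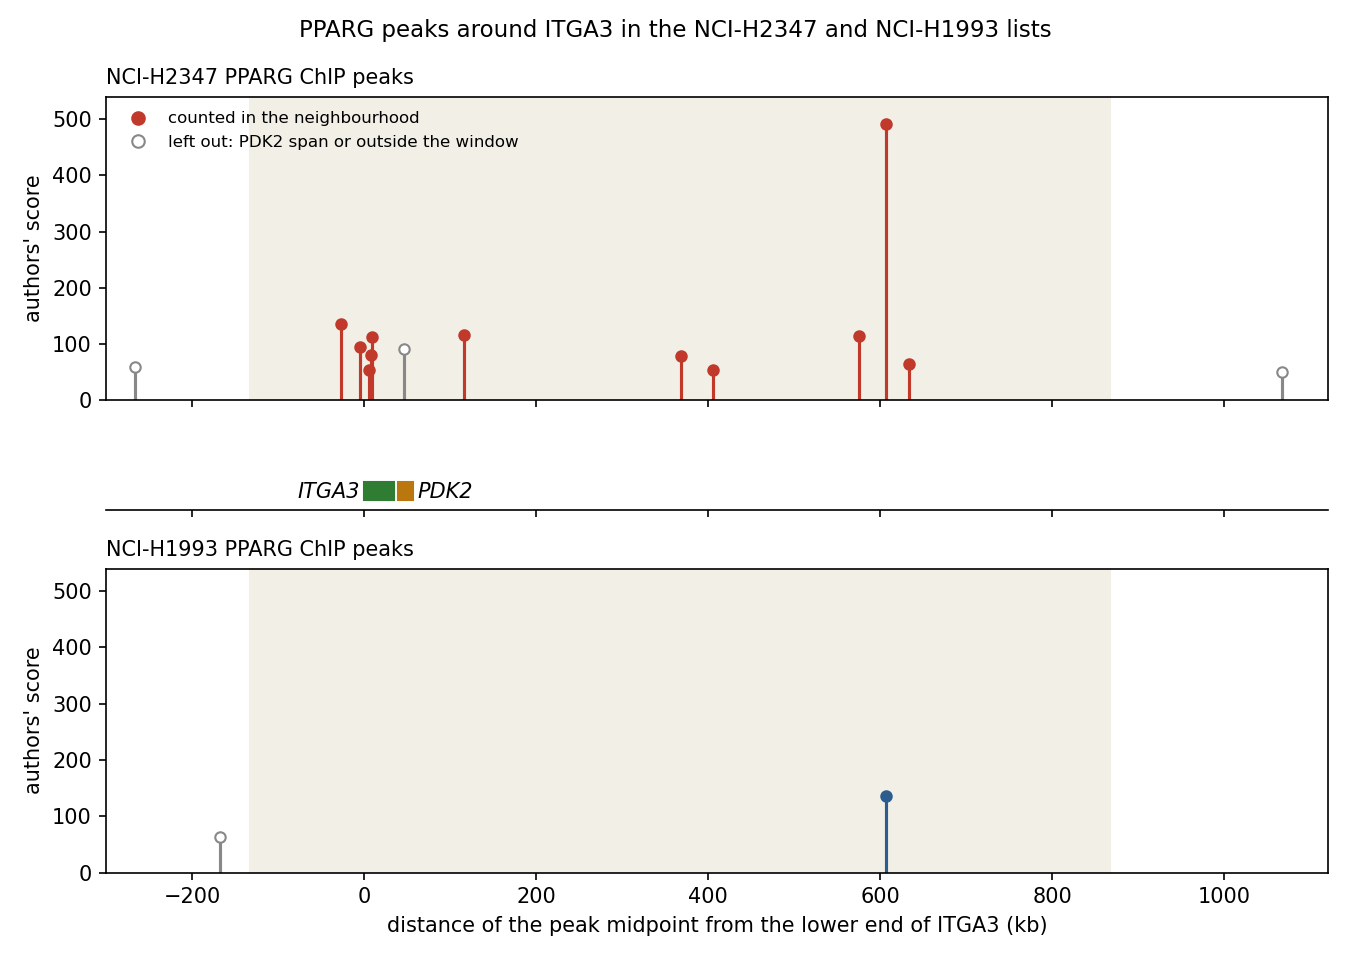
The map places every listed peak by the distance of its midpoint from the lower end of ITGA3 (horizontal axis, kb) and by the authors' score (vertical axis), for NCI-H2347 above and NCI-H1993 below, with the spans of ITGA3 and PDK2 between them and the window shaded. The 11 NCI-H2347 members are spread over the window from before ITGA3 to 634 kb beyond its lower end, whereas the 1 NCI-H1993 member sits at the position of the highest NCI-H2347 peak; heights are not comparable between the panels.

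Around ITGA3 itself, 5 peaks of NCI-H2347 lay within 37.3 kb, and the NCI-H1993 list had none there. The outermost was at chr17:48105370-48106189, with its midpoint 27.2 kb below the gene. It scored 136, which ranked 430 of 2225 in the list and was the second highest score of the window. The next peak, at chr17:48128023-48128707, had its midpoint 4.64 kb below the gene and a score of 95.6 (rank 790). No peak covered the lower end of the gene, where transcription starts. The nearest edges were 4.29 kb before it and 5.14 kb after it, so that 9.43 kb around the start held no peak in either list.

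Inside ITGA3, 3 peaks stood in a row within 4.53 kb. They were at chr17:48138138-48138830, chr17:48140687-48141534 and chr17:48141885-48142667, and they lay in the part of the gene nearest its start. Their scores were 54.2, 79.8 and 113, with ranks of 1922, 1059 and 587, so the highest of them was the one farthest into the gene. The upper pair was separated by 350 bp, and 15 of the 2202 pairs of neighbouring peaks in the NCI-H2347 list had a smaller gap. The remaining 25.3 kb of the gene held no peak. Runs of 3 successive midpoints within 5 kb occurred 6 times among the 2225 NCI-H2347 peaks, this one included, and 0 times among the 1419 NCI-H1993 peaks. The 5 kb limit was not a planned setting, and it encloses this run, whose midpoints were 2.63 and 1.17 kb apart. Runs that share peaks were counted separately, so the counts are a description. Whether the peaks fall in introns or exons was not determined, since exon positions on hg19 were not used here.

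**Figure D2:**
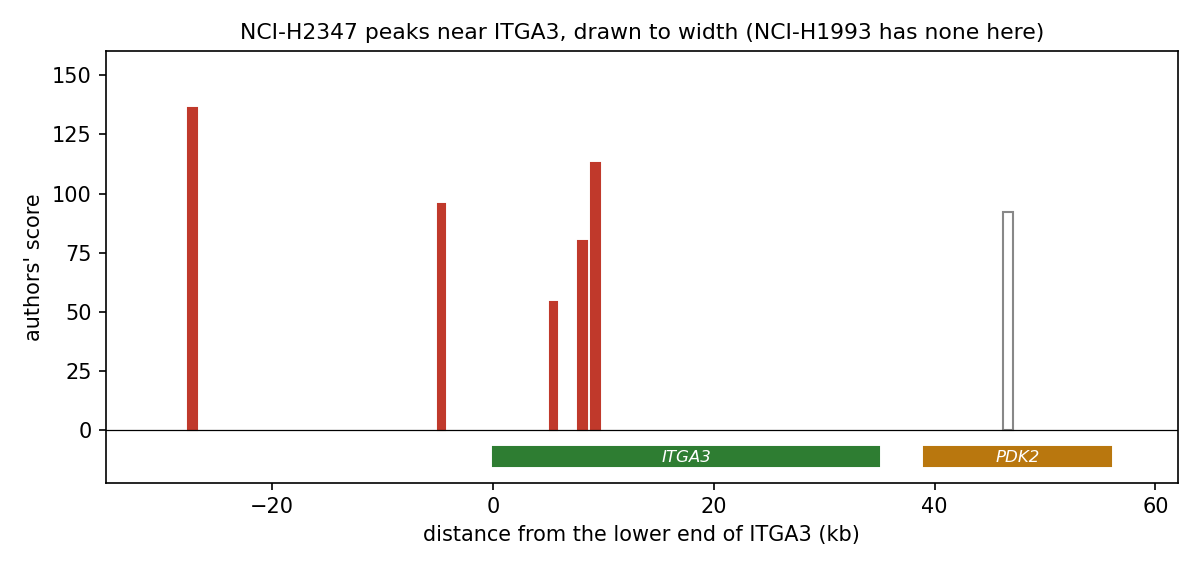
The close-up draws the NCI-H2347 peaks near ITGA3 as bars of their true width along the distance from the lower end of the gene (horizontal axis, kb), with the authors' score as height; the open bar is the peak inside PDK2, which is left out of the counts. The 3 peaks inside ITGA3 stand between 5.14 kb and 9.67 kb from its lower end and step up from 54.2 to 113, and the stretch over the gene's start is empty.

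The adjacent PDK2 span held 1 NCI-H2347 peak, at chr17:48179178-48180124 with a score of 92.2 (rank 844), and no NCI-H1993 peak. It lay 37.4 kb from the last peak of ITGA3, midpoint to midpoint.

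Beyond PDK2 the peaks were spread more widely. A peak at chr17:48248192-48248900 scored 115 (rank 567) and lay 68.9 kb from the PDK2 peak and 253 kb from the next one. Then came a pair 36.8 kb apart, at chr17:48500954-48501801 with a score of 78.9 (rank 1074) and at chr17:48537870-48538453 with a score of 53.5 (rank 1961). The peak scoring 53.5 was the lowest and, at 584 bp, the narrowest of the 11.

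The last 3 peaks lay within 59.6 kb of each other and more than 500 kb beyond ITGA3. The middle one, at chr17:48738667-48739765, had a score of 492. It was the widest of the 11 at 1099 bp, ranked 7 of 2225 in the list and was the second highest of the 150 NCI-H2347 peaks on chromosome 17. The peaks on either side, at chr17:48707591-48708463 and chr17:48766413-48767181, scored 115 (rank 576) and 65.3 (rank 1438). The highest peak of the neighbourhood was therefore 571 kb away from the upper end of the gene that names it.

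**Figure D3:**
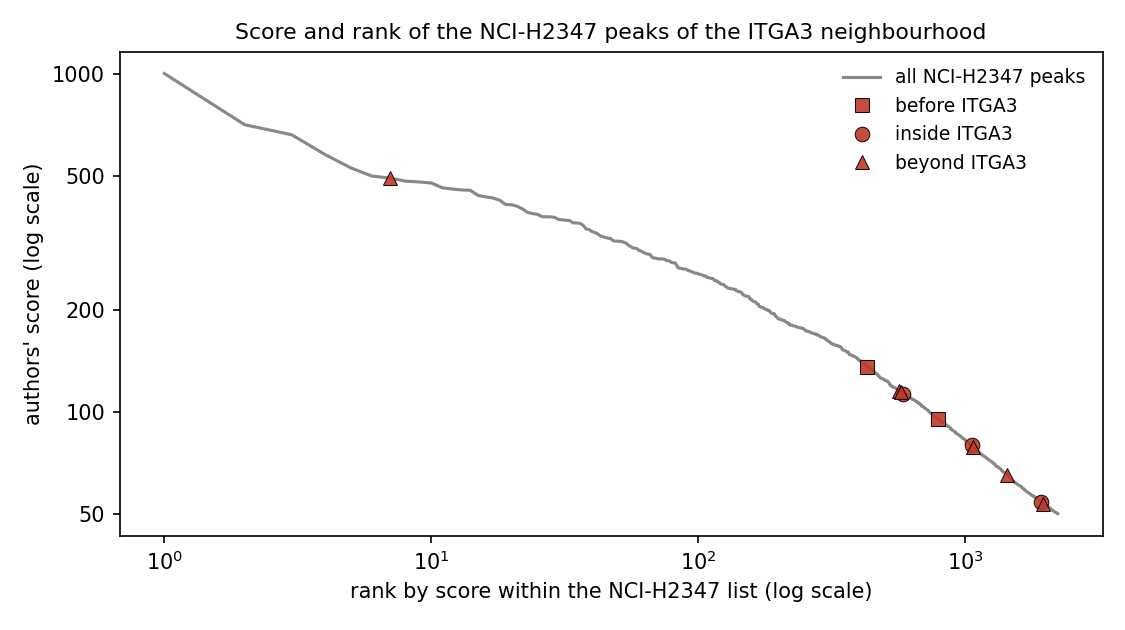
The line gives the authors' score (vertical axis, log scale) against the rank by score (horizontal axis, log scale) of all 2225 NCI-H2347 peaks, and the symbols mark the 11 members by their place before, inside or beyond ITGA3. One symbol stands near the top of the list at rank 7, and the other 10 lie between ranks 430 and 1961.

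The 1 NCI-H1993 member fell on that highest peak. It was at chr17:48738807-48739569, 763 bp wide, and lay wholly inside the NCI-H2347 peak, with the midpoints 28 bp apart. Its score of 137 ranked 167 of 1419 in the NCI-H1993 list and 8 of 64 on chromosome 17. Among the peaks that overlapped a peak of the other list, the site ranked 4 of 483 by score in NCI-H2347 and 101 of 486 in NCI-H1993. It was thus the single site of the neighbourhood listed in both lines, and it stood high in each list. Of the 20 highest peaks of the NCI-H2347 list, 15 overlapped an NCI-H1993 peak, against a background of 483 of 2225, or 21.7%, over the whole list.

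Of the 11 NCI-H2347 members, 1 overlapped an NCI-H1993 peak by at least 1 bp, which is 9.09%. The background over the whole NCI-H2347 list was 21.7%. With 1 NCI-H1993 peak in the window, which is how the window was chosen, few members could overlap one, so nothing is read from this share. In the other direction, 34.2% of the NCI-H1993 list overlapped an NCI-H2347 peak. The other 10 members scored between 53.5 and 136, and 16.5% of the 1532 NCI-H2347 peaks in that range of scores overlapped an NCI-H1993 peak. Their distance to the nearest NCI-H1993 midpoint ran from 27.6 to 284 kb with a median of 175 kb. Counting the overlapping one, 3 of the 11 had an NCI-H1993 midpoint within 50 kb, against a background of 33.5%, and all 3 did so through the same NCI-H1993 peak.

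Among the 11 members, 5 scored at least 100, or 45.5%, where the background was 33.0%. The 1 NCI-H1993 member also did, in a list where the background was 23.8%. The 5 NCI-H2347 members were the outermost peak before ITGA3, the last peak inside it, the first peak beyond PDK2 and the first and middle peaks of the far group. Above the median score of the list stood 8 members, and 3 were below it. With the NCI-H2347 list cut to its 1419 highest scores, which keeps 63.8% of it, 8 of the 11 stayed. Apart from the peak of rank 7, no member was in the top 10% of the list. Widths were ordinary for the list, with a median of 783 bp among the members (584 to 1099 bp) and 832 bp over all NCI-H2347 peaks (quartiles 685 and 993 bp). Wider members tended to score higher (Spearman correlation 0.58 over 11 peaks of 1 library, a description), as did peaks over the whole list (0.48).

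The spacing of the members ran from 1.17 to 253 kb. The median distance between neighbouring midpoints was 29.4 kb over 10 pairs, against 224 kb over the 149 pairs of NCI-H2347 on chromosome 17 and 407 kb over its whole list. The member pairs leave out the PDK2 peak, so 1 of them, at 106 kb, spans it. With that peak counted the median was 31.2 kb. Short spacing follows from choosing a window full of peaks and is given as a description. Of the 10 pairs, 2 were within 10 kb, both of them inside ITGA3, where the background over the list was 7.58%. The peak before the gene and the lowest-scoring peak inside it were just beyond that limit, at 10.1 kb.

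Few peaks were listed on either side of the window, but only the upper stretch was among the widest of the chromosome. The nearest NCI-H2347 peaks outside it were at chr17:47865431-47866119, with a score of 58.7, and at chr17:49198911-49200169, with a score of 50.8. The members closest to the 2 edges were the ones scoring 136 and 65.3. From the first of these outer peaks the list had none for 1290 kb toward lower coordinates. Of its 149 spacings on chromosome 17, 22 were wider than that. From the second it had none for 3815 kb toward higher coordinates, the second widest spacing of the chromosome in that list. Between the NCI-H2347 peaks that close these stretches, 6.44 Mb held 14 peaks, of which 11 were the members and 1 the PDK2 peak. In the NCI-H1993 list the neighbours of its single member were at chr17:47964488-47964938, 774 kb away, and 4759 kb away toward higher coordinates, which was also the second widest spacing of its chromosome 17 peaks. Toward higher coordinates, both lists were thus nearly empty over the same megabases beyond the window. The 1 Mb windows on either side held 1 peak each in NCI-H2347, and 1 and 0 in NCI-H1993. A count of 1 was common, found in 598 of the 1129 windows with an NCI-H2347 peak.

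Against the other windows of the genome, the one around ITGA3 was chosen for its high NCI-H2347 count and its low NCI-H1993 count, so the values that follow are set side by side as a description. With the PDK2 peak it held 12, and of the 1129 windows of 1 Mb with any NCI-H2347 peak, 848 held 1 or 2. The window from chr17:57000001 also held 12, and the windows from chr12:52000001, chr1:201000001 and chr11:65000001 held 10, 9 and 9. These are the other windows with at least 9 NCI-H2347 peaks, taken as most like it by that count alone. The NCI-H1993 list had 1 peak in the ITGA3 window, against 6, 2, 3 and 2 in those windows in the same order. Shared NCI-H2347 peaks numbered 1 of 12, against 5 of 12, 2 of 10, 3 of 9 and 1 of 9. With 1 NCI-H1993 peak in the ITGA3 window its shared share is limited by the choice. Its highest score, 492, lay below the 527 of the chromosome 1 window and above the 310, 384 and 228 of the others. The median score was 93.9, against 120 in the other chromosome 17 window and 71.7 to 78.5 in the remaining 3. Its spacing was not the shortest, with a median of 31.2 kb against 7.18 to 42.2 kb.

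Other windows also held several NCI-H2347 peaks and few NCI-H1993 peaks. These counts are a description, since they use the values that chose the window, and the exact share over all windows was not computed. Of the 73 windows with at least 5 NCI-H2347 peaks, 25 held at most 1 NCI-H1993 peak and 45 held at most 1 shared peak. Both shares were larger over all 1420 windows with a peak of either list. Most of those held at most 1 NCI-H1993 peak and at most 1 shared peak. Most of the 73 were much less full than the ITGA3 window, and 45 of them held exactly 5 NCI-H2347 peaks. The other windows with at least 9, named above, all held at least 2 NCI-H1993 peaks. Among the 9 windows with at least 8, there were 3 with at most 1 NCI-H1993 peak, this one included. The others of these 3 held 8 NCI-H2347 peaks and 0 NCI-H1993 peaks each. On chromosome 17, 27 of the 41 windows with an NCI-H1993 peak held exactly 1.

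**Figure D4:**
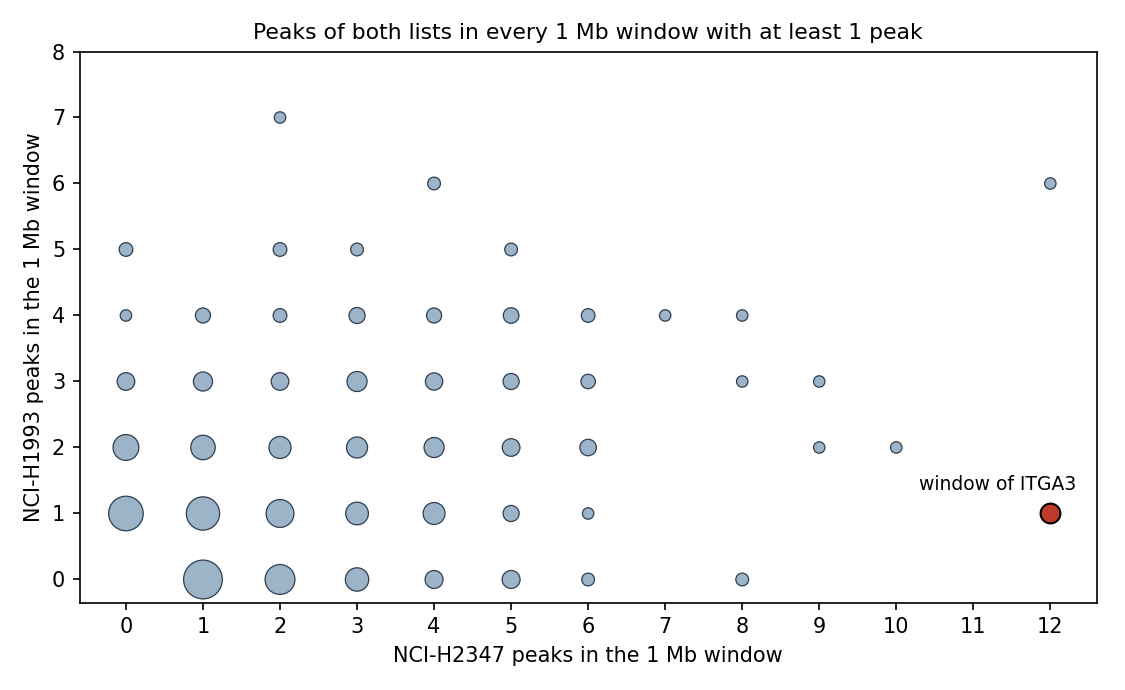
Each circle is a combination of peak counts in a 1 Mb window, with the NCI-H2347 count on the horizontal and the NCI-H1993 count on the vertical axis, and its area grows with the number of windows. The window of ITGA3, in red and drawn at a fixed size, lies at 12 and 1, whereas the other window with 12 NCI-H2347 peaks has 6 NCI-H1993 peaks.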

How the data were processed

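PPARG ChIP-seq peak lists of NCI-H2347 and NCI-H1993 were used, 1 library per line. Per the submitters' processing notes, the authors used MACS 1.4.2 and build hg19. Aligner, filters, threshold and the use of inputs are not given in the sources used here. Each list has 5 columns, and the deposited score of a peak comes from the authors' caller. Read depth is unknown, so neither scores nor peak numbers were compared between lines as binding.

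Starts were made 1-based. Peaks were assigned to windows by midpoint and called shared at an overlap of at least 1 bp. Rank and percentile were taken within a list. No test was made, since there was no replicate and the peak counts had chosen the window. The members and lists were chosen with earlier results of these data known. All members were named, and 5 protein-coding genes on each side of ITGA3, a number set after the data were seen. Sequence, motif and integrin gene list steps needed hg19 positions and were not run. Code was checked on simulated lists. Python 3.11.15, numpy 2.4.6, pandas 2.3.3, scipy 1.17.1 and matplotlib 3.10.9 were used.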

Additional observations from a re-analysis of the deposited data

How the results depend on the processing

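Of 18 alternatives run for the values described, 15 moved the value little (within 1.5 times for counts, within the order-statistic 95% interval of a median otherwise). That interval came from 1 library and treats its values as independent, which peaks chosen for their crowding are not. It ran from 2.63 to 170 kb for the median spacing over 10 pairs. For the median score percentile over 11 peaks it ran from 13.7 to 80.7. Few alternatives could leave it. The NCI-H1993 count and the overlap rest on 1 peak, which scored 137 and lay wholly inside its counterpart. Little is therefore read from the number of unmoved values. The NCI-H2347 member count was 5 with a score of at least 100 and 8 with that list cut to its 1419 highest scores, since fewer peaks entered. It was 10 with peaks under 1000 bp apart merged, which was chosen after seeing the data. Members near an NCI-H1993 peak numbered 3 when midpoints within 50 kb counted. With windows shifted by 500 kb, the one with the lower end of ITGA3 held 8 NCI-H2347 peaks, and 8 other windows held as many or more, against 1 unshifted, since the shift splits the stretch. The letters of binding motifs were not searched, since no hg19 sequence was used. No paired analysis was possible because each line had a single ChIP library. Signal under the calling threshold is not in the lists.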
